A study of Mus musculus with 3264 samples.

Results

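The mouse leukemia line described here was read as single cells picked by type. Its members are the target wells whose label names a leukemia cell: 30, 34, 30 and 32 wells on 4 plates had a column in the deposited table, which is 87.5% of the wells so labelled. They are 39.5% of the target wells with a column, and 6.86% of the 1836 wells in the cell line table of a series of 3264 samples. The comparison wells were the T and hematopoietic progenitor cell (HPC) wells of the same plates, 31, 32, 24 and 33 T wells and 17, 21, 17 and 18 HPC wells, summed with each other within each plate. All 3 lines were mixed and then isolated by ALPS, an instrument that picks living cells under imaging, and no treatment, time point or genotype is attached to these wells.

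The labels give no name and no culture for any of the lines, and the strain is entered as NA. Each well is 1 cell, so a line has n = 1 and no test of differences was possible. Agreement between plates is agreement between repeat plates of the same labelled lines. Whether the plates came from a single picking is not known here. Each plate held leukemia cells in wells 1 to 36, T cells in wells 37 to 72 and HPC in wells 73 to 96, so the line and the position on the plate cannot be told apart. Leukemia wells held 11627 to 80389 counts (median 31868) and 3120 to 7312 detected genes (median 5439), against medians of 37147 counts in T and 34189 in HPC wells. Rn45s, a ribosomal RNA locus, took 6.04 to 27.7% of the counts of a leukemia well (median 11.4%). No leukemia column was identical to another.

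T cells and natural killer (NK) cells arise from a shared lymphoid progenitor, and leukemias of this lineage often carry surface proteins of an early stage together with pieces of the mature program. Signalling through the T cell antigen receptor needs the CD3 chains, the kinases Lck and Zap70 and the adaptor Lat, whereas NK cells use activating and inhibitory receptors such as those encoded by the Klr genes. CD7, a glycoprotein of early T and NK cells, is widely used to recognise T lineage leukemia.

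The label was first checked on 5 marker genes, Cd160, Cacna2d2, Cmah, Capn3 and Cd7, which had been proposed with results of these data known and are given as a description. Levels are CPM, a gene's share of all counts of the well or of the summed wells, scaled to 1000000. Cd160, a receptor of cytotoxic lymphocytes that binds HVEM, had counts in 100% of leukemia wells, from 87.5 to 944.2 CPM with a median of 369.2. On the 4 plates its summed level was 379.5, 452.9, 336.2 and 342.6 CPM in leukemia wells and 0.285, 0, 0 and 15.7 CPM in T and HPC wells. Cacna2d2, an auxiliary subunit of voltage-gated calcium channels, was detected in every leukemia well too, from 23.8 to 1204.1 CPM (median 299.6). Cmah, the enzyme that converts the sialic acid Neu5Ac to Neu5Gc, ran from 18.1 to 1032.1 CPM (median 452.6) with no well at 0. Capn3, a calcium-dependent protease known from muscle, was detected in 94.4% of wells, with a median of 135.5 CPM and a maximum of 516.4. Cd7 was detected in 92.1% of wells, with a median of 243.4 CPM and a maximum of 3063. The share of wells with a count, after every well was thinned to 10000 counts, was 94.4% for Cd160 in leukemia wells, 0% in T wells and 2.74% in HPC wells.

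**Figure D1:**
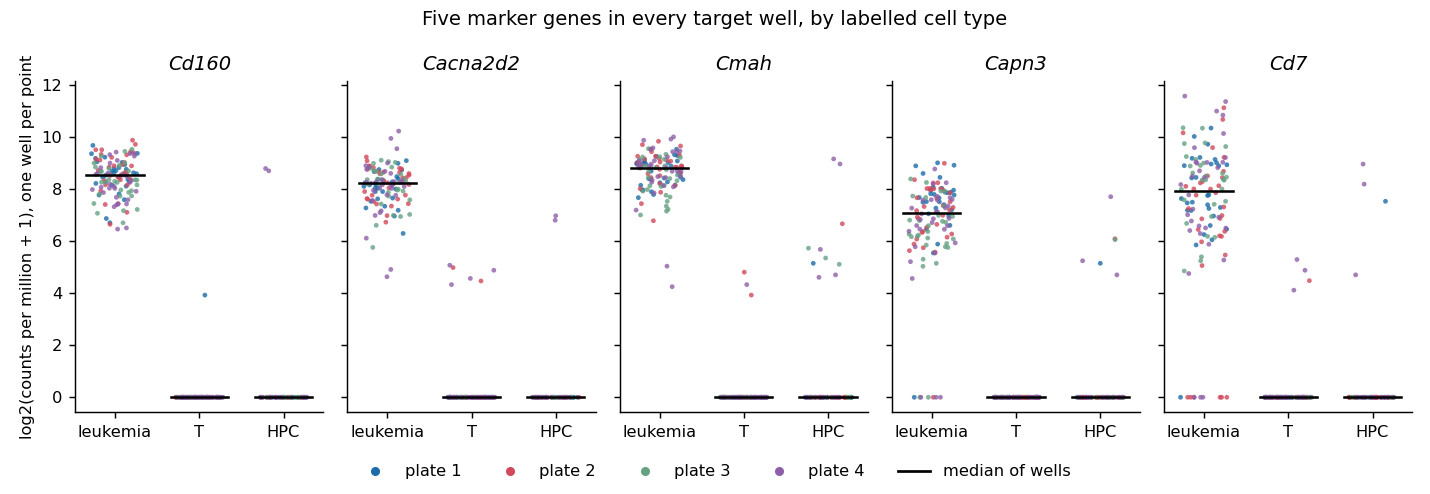
Levels of 5 marker genes, as log2(CPM + 1) on the vertical axis, in every target well, by labelled cell type on the horizontal axis. Each point is a well coloured by plate and the black line is the median of the wells: Cd160, Cacna2d2 and Cmah had counts in 100% of leukemia wells, Capn3 and Cd7 in 94.4% and 92.1%, and the medians of T and HPC wells were 0.

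The expression profile of every leukemia well was closest to the leukemia profile of the other plates, by Spearman correlation over 9923 genes. Of the comparison wells, 3 went against their label, all on plate 4 and labelled HPC: wells 74 and 89 carried genes of the leukemia line at 113.5% and 117.7% of that line's own level, and well 96 carried T line genes at 81.6%. These 3 wells stay in the comparison as labelled, and values without them are given beside the leading results they touch most. They account for much of the marker signal in the comparison wells: Cd160 had 34.5 counts there with the 3 wells and 0.5 without, and Cmah 55 and 12. A single leukemia well, well 4 of plate 2, held genes of the T line at 23.5% of that line's level. In it Ccdc36 had 44.05 counts and Kif3a 40.88, where 2.16 and 3.15 were expected from the other leukemia wells. Thy1, abundant in T wells, and Mt1, Mt2 and Fabp5, abundant in both T and HPC wells, were at 0 in it. The part of each gene in the 23.5% was not measured, and a source in T line RNA was not tested.

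The main comparison asked which genes separate the leukemia line from the T and HPC lines. A log2 difference is the log2(CPM + 1) of the summed leukemia wells minus that of the summed T and HPC wells of the same plate, averaged over the 4 plates. A gene was tested if it reached 10 CPM on either side, and it met the rule if it differed at least 2-fold in the mean and in the same direction on every plate. Of 8367 tested genes, 9.26% were higher by this rule and 14.4% were lower, and these shares are the background for the counts below. The median log2 difference was -0.0075, with an SD of 1.44 over genes. With 8-fold in place of 2-fold, 1.94% were higher and 5.43% lower, and with 32-fold 0.335% and 1.25%. Of the tested genes, 2.81% had no count in any leukemia well and 0.167% had none in T and HPC wells. Without the 3 wells against their label, 9.36% were higher and 14.5% lower, and these held 99.6% of the higher and 99.8% of the lower genes found with all wells. The ratios below are of summed CPM over all plates, with exact 95% intervals that cover counting error only. The intervals use counts rounded to whole numbers, with at least 1 in the lower group, while the ratios use the counts as they are.

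The 15 genes with the largest higher values, under the naming rule given with the processing, held all 5 markers. This carries no weight, since the markers had been proposed with results of these data known. Cd160 led with a log2 difference of 7.45 (plates 4.37 to 8.83), a ratio of 80.02 (57.9 to 117.7). Without the 3 wells against their label, 0.5 counts remain in the comparison wells. The Cd160 ratio was then 5420, with an interval, taken at 1 count, of 485.7 to 107102. Cacna2d2 followed at 7.29 (5.52 to 8.25), a ratio of 151.03 (92.9 to 286.9), and 390.9 (164.2 to 978.2) without the 3 wells. Cel, which encodes a bile salt-dependent lipase, stood at 309.3 CPM against 0.209 in T and 13.1 in HPC wells, a log2 difference of 7.09. Plagl1, an imprinted zinc finger gene, was at 261.6 CPM against 0 and 10.9 (log2 difference 6.999), and Ppic, a cyclophilin, at 225.7 CPM against 0.209 and 7.56 (log2 difference 6.84). Nearly all of the HPC signal of these 3 genes came from the wells against their label: without them HPC wells held 0 CPM of Cel, 0.21 of Plagl1 and 0 of Ppic. Cel and Plagl1 were each detected in 99.2% of leukemia wells. Plate 4, with the wells against their label, gave the smallest difference for 14 of these 15 genes; the exception was Fam46a.

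Fam46a, a terminal nucleotidyltransferase gene, was at 65.95 CPM in leukemia wells and had 0 counts in all comparison wells, a level at least 160.5-fold higher against a floor of 3 counts over the group. Its 4 plates gave leukemia levels of 55.8, 65.8, 83.9 and 60.7 CPM. The remaining genes were Arhgef17 and Arhgef19, exchange factors of small GTPases (log2 differences 6.09 and 5.46), Aass, an enzyme of lysine breakdown (5.96), Prss12, a serine protease (5.83), Kcnk13, a potassium channel (5.75), and Wnt6, a secreted signalling protein (5.71). Wnt6 was detected in 99 wells, with a median of 86.9 CPM and a maximum of 1282.8. Without the 3 wells the differences of the 15 genes were 6.02 for Arhgef19 at the lowest and 8.46 for Cd160 at the highest.

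On the other side, Cdk6, a kinase that drives entry into S phase, was nearly missing from the line. It had 1 count over all leukemia wells, against 3090 counts in T and HPC wells, where it stood at 367.8 and 528.7 CPM, a log2 difference of -8.50 (plates -9.10 to -7.56). Fabp5, a fatty acid-binding protein, had 1 count against 3028 (log2 difference -8.42). The metallothioneins Mt2 and Mt1, small proteins that bind zinc and copper, followed at -8.29 and -8.27. Mt1 had 5.5 counts in the leukemia wells, in 5 of them, against a median of 512.98 CPM in T wells (66.3 to 1236.7) and 547.5 in HPC wells (0 to 2073). The only HPC wells at 0 were wells 74 and 89 of plate 4, which went against their label. The lowest other HPC well held 157.7 CPM. The summed leukemia level of Mt1 on the 4 plates was 0.423, 0.968, 0 and 3.79 CPM, and that of the comparison wells 497.3, 500.8, 663.04 and 727.8. Mt2 had 2.25 counts, in 3 wells, against 558.6 CPM in T and 198.96 CPM in HPC wells. The ratio of comparison to leukemia wells was 464.995 for Mt1 (195.7 to 1162.02) and 823.4 for Mt2 (256.2 to 7651). The highest leukemia well held 75.6 CPM of Mt1 and 68.5 CPM of Mt2, above the lowest T well in both genes, so single leukemia wells overlapped the low end of the T wells.

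Mt1 and Mt2 lie side by side on chromosome 8 and are known to answer to zinc through metal response elements bound by the factor MTF1. Their upstream sequences are shown because these neighbours were low together. Each is the 250 bases before the start site in RefSeq (GRCm38.p6, plus strand), with capitals on the core of the element, TGCACNC or TGCGCNC, on either strand.
Mt1, chr8:94178839-94179088: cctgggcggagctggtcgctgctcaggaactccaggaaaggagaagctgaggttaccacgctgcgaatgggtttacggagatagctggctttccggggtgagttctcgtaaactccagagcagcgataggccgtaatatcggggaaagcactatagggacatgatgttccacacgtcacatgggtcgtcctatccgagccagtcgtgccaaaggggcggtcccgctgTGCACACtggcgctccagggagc
Mt2, chr8:94172368-94172617: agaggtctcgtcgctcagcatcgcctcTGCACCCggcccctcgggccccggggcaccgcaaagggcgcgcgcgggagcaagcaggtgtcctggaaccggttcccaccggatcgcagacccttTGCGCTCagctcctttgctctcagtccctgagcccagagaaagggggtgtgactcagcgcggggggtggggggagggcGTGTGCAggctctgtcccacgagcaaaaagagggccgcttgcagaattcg
The Mt1 window held 1 match and the Mt2 window 3. Of 32851 RefSeq windows of this length, 21.4% held at least 1 match and 1.26% at least 3. Only these 250 bases were searched, so any match after the start site was not counted. A match is a description of these letters, not a bound site.

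The other leading lower genes divided by which comparison line carried them. Thy1, a surface glycoprotein of T cells, stood at 600 CPM in T wells and 16.3 in HPC wells (0 without the wells against their label) against 2.5 counts in leukemia wells, a ratio of 680.3 (235.2 to 7024). Ly6a, the Sca-1 antigen (log2 difference -6.96), Ccdc91 (-6.81), and Galnt6, an O-glycosylation enzyme (-6.76), were likewise high in T wells. Plac8, a gene of immature myeloid cells, stood at 981.9 CPM in HPC wells and 1.36 in T wells against 2 counts in leukemia wells (-7.90). Mef2c, a transcription factor (-7.48), Cd34, a progenitor surface protein (-7.24), Ybx3, an RNA-binding protein (-6.83), and Ccl3, a chemokine (-6.82), were also carried by HPC wells. Cdkn1a, the p21 inhibitor of cyclin-dependent kinases, and Chchd10, a mitochondrial protein, were present in both lines and had 0.5 and 2.25 counts in leukemia wells. Ybx3 and Ccdc91 had no count in any leukemia well, so the comparison wells were at least 161.5-fold higher in each.

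The gene lists below were also chosen with results of these data known, so a list's count is a description beside the background of 9.26% higher and 14.4% lower. Of 23 T cell genes, 20 were in the table and 13 were tested: 3 were higher, 6 lower and 4 neither, with a median log2 difference of -0.99. The antigen receptor chain Cd3g was at 297.1 CPM in leukemia wells against 31.5 in T and 8.95 in HPC wells (0 without the wells against their label), a log2 difference of 3.64. Cd3e, its partner, was at 237.4 CPM against 193.8 in T and 10.15 in HPC wells (0.21 without those wells) and did not meet the rule (0.86). Cd28, a costimulatory receptor, was higher (2.43). Lck, the kinase that phosphorylates the CD3 chains, was lower, with 3.64 CPM against 95.6 in T wells (log2 difference -4.42). Lower too were the adaptor Lat (-1.77), Thy1, Cd8b1 (-3.97), the transcription factor Bcl11b (-4.27), and Lef1 (-1.09), which did not meet the rule without plate 3, without plate 4 or with the comparison lines weighted equally. Tcf7, a transcription factor of early T cells, was at 560 CPM in leukemia wells and 687.3 in T wells (0.27), and Gata3 (-0.63) and Zap70 (-0.99) were neither. Cd247, Cd4, Cd8a, Cd5 and Cd6 had no count in any leukemia well, and at most 8 counts in the T or HPC wells. The constant regions of the receptor chains were not analysed here.

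NK genes were split in the same way. Of 19 in the table, 5 were tested: 2 higher, 2 lower and 1 neither. Klrd1, the CD94 chain, stood at 132.4 CPM against 0.209 in T and 9.15 in HPC wells, a log2 difference of 5.37 (plates 4.03 to 6.04). Klrk1, the NKG2D receptor, had 112.5 counts in leukemia wells and 0 in the others, a level at least 64.3-fold higher. Nkg7, a granule protein, and Fcer1g, a signalling adaptor, were lower (-3.34 and -5.12). The cytotoxic genes Prf1 and Gzmb and the NK receptor Ncr1 had no count in any target well. In the list of early T development, 8 of 17 genes were tested, with 1 higher and 3 lower. Satb1, a chromatin organiser, was at 143.5 CPM against 0.888 in T and 184.6 in HPC wells (1.15). Cd24a (-1.23), Ets1 (-2.21) and Tox (-1.08) were lower. Satb1 did not meet the rule without plate 4, nor Tox without plate 1, nor any of Satb1, Tox and Ets1 with the comparison lines weighted equally. Notch1, Notch3, Rag1 and Rag2 had no count in leukemia wells.

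Genes of other blood lineages, which could mark cells of another type, were mostly low in leukemia wells, with exceptions among the myeloid genes. All 10 tested progenitor genes of a list of 17 were lower, with a median log2 difference of -5.21. Flt3, Sox4, Hoxa9 and Hoxa10 had no count in leukemia wells, and the whole list summed to 28.8 CPM there against 3087 in HPC wells. Myb, a transcription factor of progenitors, remained at 17.4 CPM (log2 difference -3.45). Of 8 tested myeloid genes, 6 were lower, and Mpo, Tyrobp, Spi1 and Lst1 had no count in leukemia wells. Summed, the myeloid list stood at 200.6 CPM in leukemia wells, above the 72.5 CPM of T wells and below the 1093.1 CPM of HPC wells. Cx3cr1, the fractalkine receptor, was higher, at 72.4 CPM against 0.418 in T and 3.18 in HPC wells (log2 difference 5.30), and without the wells against their label HPC wells held 0.841 CPM. Fcgr3, a low-affinity Fc receptor, was at 94.8 CPM and was neither (0.93). Cx3cr1 and Fcgr3 also varied between leukemia wells, with squared coefficients of variation beyond counting error of 0.893 and 0.943. The B cell list summed to 1.17 CPM in leukemia wells, where its single tested gene, Cd74, had no count and did not meet the rule without plate 1, and the erythroid and megakaryocyte list to 2.23 CPM with no gene tested.

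**Figure D2:**
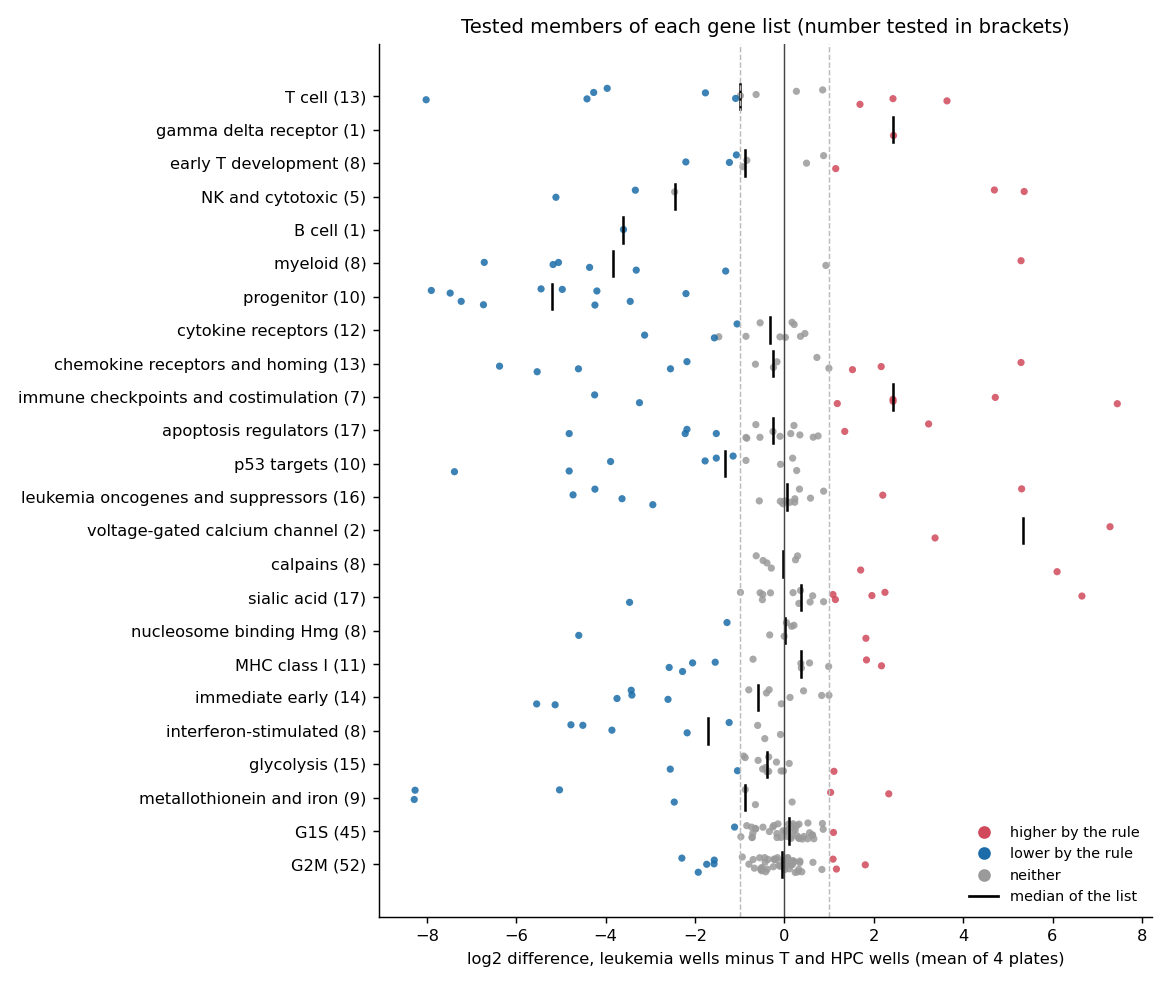
Log2 differences between leukemia wells and T and HPC wells, as the mean of 4 plates, for the tested members of each gene list. Each point is a gene, red if higher, blue if lower and grey if neither by the rule, the black line is the list's median and the dashed lines mark 2-fold; all 10 progenitor genes lie on the lower side and most G1S and G2M genes lie within 2-fold.

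Of 7 tested checkpoint and costimulatory genes, which set how strongly lymphocytes respond, 5 were higher and 2 lower, with a median log2 difference of 2.43. Beside Cd160 and Cd28, these were Cd96, a receptor of T and NK cells, at 132.8 CPM against 2.51 in T and 9.15 in HPC wells (4.72, plates 3.67 to 5.69), Cd27, a TNF receptor family member, at 117.7 CPM against 0.104 and 60.1 (2.43), and Btla, another partner of HVEM (1.18, plates 0.04 to 2.37). Btla did not meet the rule without the 3 wells, without plate 1 or without plate 2. Pdcd1, the PD-1 receptor, had no count in leukemia wells against 27.2 CPM in T wells (-4.25), and Tnfrsf18, the GITR receptor, was lower (-3.25). Among 13 tested homing genes, Cxcr6 (1.52), Cx3cr1 and Klf2, a transcription factor that controls exit from tissue (2.16), were higher. Lower were the receptors Ccr4 (-4.61) and Ccr9 (-2.55), the selectin ligand Selplg (-2.18) and the integrin chains Itga4 (-6.38) and Itgal (-5.54). Itga4 and Itgal had no count in leukemia wells, while their beta partners Itgb1, Itgb7 and Itgb2 were at 97.05, 53.04 and 51.6 CPM and were neither. Of 12 tested cytokine receptor genes none was higher, and Csf2rb (-3.13), Tgfbr2 (-1.57) and Il18r1 (-1.06) were lower; Il18r1 and Csf2rb did not meet the rule without plate 3, nor Ccr9 without plate 4.

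The survival genes Bcl2l1 and Bcl2 differed in opposite directions. Bcl2l1, which encodes the survival protein Bcl-xL, was at 220 CPM in leukemia wells against 20.7 in T and 27.5 in HPC wells, a log2 difference of 3.23 (plates 2.83 to 3.53) and a ratio of 9.57 (8.11 to 11.3). Bcl2 was at 13.4 CPM against 8.91 in T and 165.9 in HPC wells (-2.22). Of the genes whose products promote death, Pmaip1 had no count in leukemia wells (-4.82), Bid (-2.18) and Bbc3 (-1.53) were lower and Bmf was higher (1.35), though not with well CPM averaged in place of summed counts. In all, 2 of 17 tested apoptosis genes were higher and 4 lower, with a median of -0.26.

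Of 10 tested targets of p53, none was higher and 6 were lower, with a median of -1.34. Cdkn1a had 0.5 counts over all leukemia wells, against 134.8 CPM in T and 286.7 CPM in HPC wells, a log2 difference of -7.39 (plates -7.75 to -7.13). Lower were also Trp53inp1 (-3.89), Ccng1 (-1.78), Mdm2 (-1.15), Bbc3 and Pmaip1; Mdm2 did not meet the rule without plate 4. Trp53 itself was at 74.99 CPM against 74.15 in T and 82.6 in HPC wells (-0.03). Cdkn2a, the locus of the p16 and Arf proteins that act on cyclin-dependent kinases and on Mdm2, was at 148.5 CPM against 0 in T and 10.35 in HPC wells, a log2 difference of 5.31 (plates 4.07 to 6.27) and a ratio of 41.7 (28.2 to 64.3), or 66.5 (40.6 to 116.97) without the wells against their label. Counts per gene do not separate its transcripts.

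Among 16 tested leukemia oncogenes and suppressors, Cdkn2a and Pim2, a survival kinase (2.20), were higher. Ccnd1, with 1 count in leukemia wells (-4.73), Lmo2 (-4.24), Evi2a (-3.64) and Gfi1 (-2.95) were lower. The other D cyclins, Ccnd2 at 283.8 CPM (0.23) and Ccnd3 at 307.7 CPM (0.01), were neither, and so were Myc (0.12) and Ezh2 (0.58). The line thus had counts of Ccnd2 and Ccnd3 where Cdk6, a kinase that can partner them, had 1 count. Other partner kinases of the D cyclins were not reported here.

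Cacna2d2, Capn3 and Cmah were the most different members of their lists. These markers and lists were chosen with results of these data known, so that rank is a description and not a finding. In the calcium channel list, 12 of 14 genes fell below 10 CPM, and Cacna2d2 and the pore-forming subunit Cacna1d, at 18.8 CPM against 0 and 3.98 (3.37), were both higher. Of 8 tested calpain genes, Capn3 (6.10) and Capn15 (1.71) were higher, whereas the ubiquitous Capn1 and Capn2 (-0.48 and -0.29) and the shared small subunit Capns1 (-0.63) were neither. Sialic acid genes had 5 of 17 higher and 1 lower, with a median of 0.36. Cmah differed most (6.66, plates 4.35 to 8.05), followed by St3gal5, the GM3 synthase (2.25), and St8sia1, the GD3 synthase that acts on GM3 (1.96). St3gal3 (1.14) and St6gal1 (1.09) were higher, but not without plate 3, with the comparison lines weighted equally, with well CPM averaged or with a pseudocount of 5 CPM, and St3gal2 was lower (-3.47). The enzymes that supply Cmah's substrate, Nans (-0.31), Nanp (-0.55) and Cmas (-0.49), were neither.

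In the remaining lists the line was mostly level with or below the others. Mt1, Mt2, the iron storage chain Fth1 (-2.47) and Hmox1, a heme-degrading enzyme with 1 count in leukemia wells (-5.03), were lower. The zinc carriers Slc39a10, which brings zinc into the cytosol (2.33), and Slc30a1, which exports it (1.03), were higher; Slc30a1 did not meet the rule without plate 1 or without plate 2. Among MHC class I genes, H2-D1 (1.84) and H2-M3 (2.17) were higher, the peptide transporter genes Tap1 and Tap2 (-2.06 and -2.58) and the immunoproteasome genes Psmb8 and Psmb9 (-1.55 and -2.28) were lower, and B2m (0.37) and H2-K1 (0.38) were neither. Of 14 immediate early genes 6 were lower, with Jun, Atf3 and Ier3 at 0 counts and Fos at -3.75. Ier3 did not meet the rule without plate 1. The whole list summed to 478.1 CPM in leukemia wells, more than in T wells (333.7) and less than in HPC wells (1019.7). With the filter at 50 CPM only 3 of its genes were tested. These were neither higher nor lower (median log2 difference 0.43), and the 6 lower genes were not among them. Of 8 interferon-stimulated genes 5 were lower, led by Ifitm1 (-4.78). In glycolysis, Hk1 (-2.56) and Aldoa (-1.05) were lower and the transporter Slc2a3 (1.11) was higher; Aldoa did not meet the rule without plate 1, without plate 2 or with the comparison lines weighted equally, nor Slc2a3 without plate 1. Hmgn1, a nucleosome-binding protein, was higher, at 550 CPM against 1.20 in T and 444.97 in HPC wells (1.82), and Hmga2 (-4.60) and Hmga1 (-1.29) were lower.

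The second question was how much the leukemia wells differ from each other. Variation was measured within plates as overdispersion, the squared coefficient of variation left after counting error, for the 4593 genes with at least 1 count per leukemia well on average. The median was 0.0748 (quartiles 0.0277 and 0.152), against 0.0518 in T and 0.101 in HPC wells over their own expressed genes. After thinning the medians were 0.0574, 0.0384 and 0.0966. In leukemia wells 2.7% of the expressed genes reached 0.5, the background for what follows, with the nearest genes at 0.501 and 0.4998. The HPC value includes the 3 wells against their label, which were not left out of it.

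**Figure D3:**
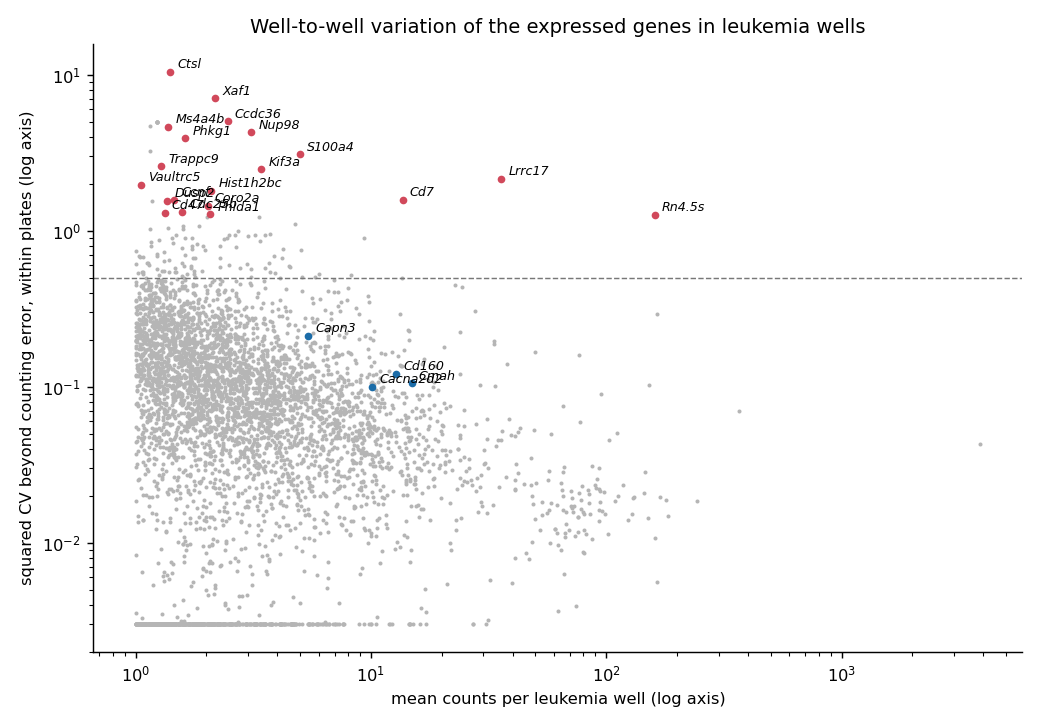
Well-to-well variation of the 4593 expressed genes in leukemia wells: mean counts per well on the horizontal log axis and squared coefficient of variation beyond counting error on the vertical log axis, with values under 0.003 drawn at 0.003 and a dashed line at 0.5. Red points are the 20 variable genes named by rule and blue points the markers Cd160, Cacna2d2, Cmah and Capn3, which lie between 0.1004 and 0.213, under Cd7 at 1.58.

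The markers differed in evenness. Cacna2d2 (0.1004), Cmah (0.105) and Cd160 (0.121) were the more even of the 5, though above the median of the expressed genes, and Capn3 was at 0.213. Cd7 was at 1.58 (plates 0.515 to 2.22): 10 wells had no Cd7 count where counting error at its mean predicts 0.0335 wells, and the highest well held 128.5 counts. Plate medians of Cd7 were 206.9, 155.2, 330.4 and 253.998 CPM, with 1, 6, 0 and 3 wells at 0, and on plate 3, with no well at 0, Cd7 still ran from 27.96 to 1315.6 CPM. High and low wells of Cd7 thus occurred together on all 4 plates. Of the tested T and NK genes, Cd3e (0.0696), Cd3g (0.105), Cd27 (0.212) and Cd28 (0.412) were below 0.5 and Klrd1 was at 0.598. Cdkn2a (0.0443) lay below the median of the expressed genes and Bcl2l1 (0.0889) above it.

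**Figure D4:**
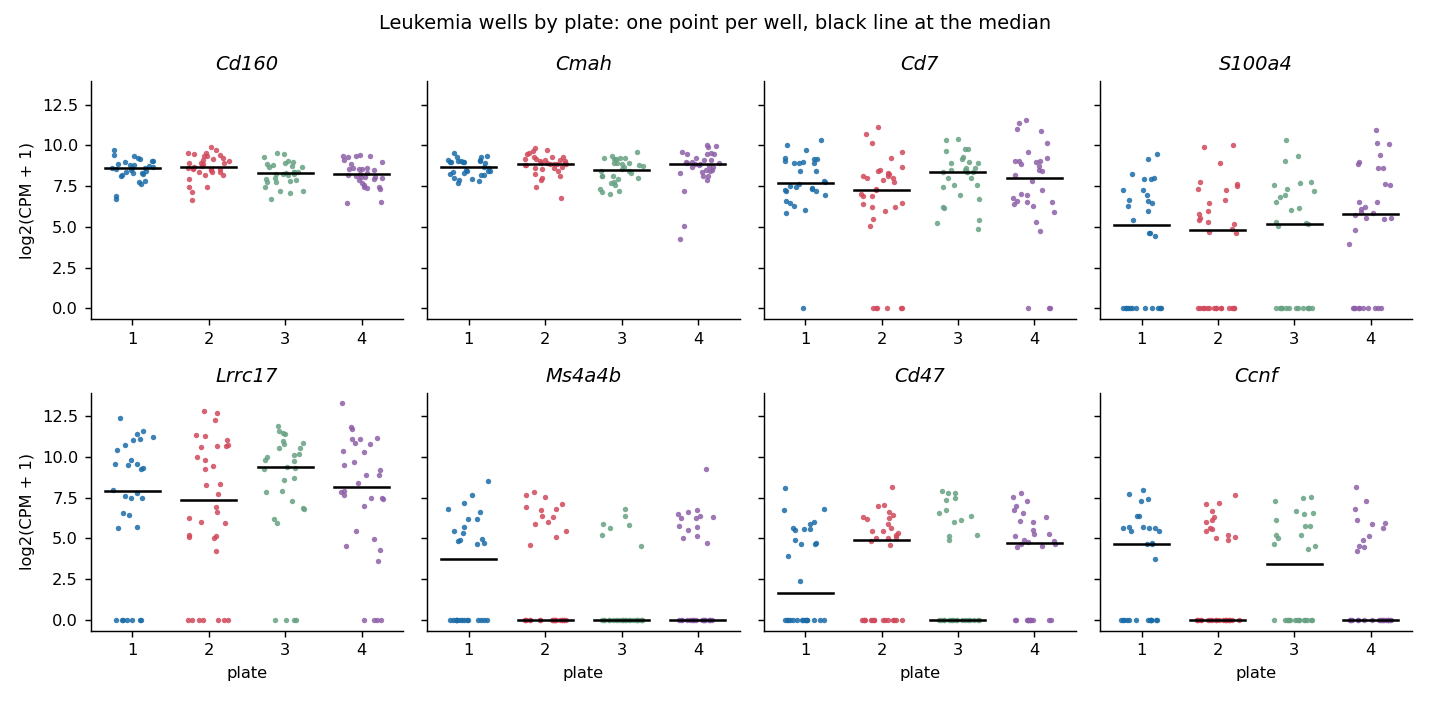
Levels of 8 genes, as log2(CPM + 1) on the vertical axis, in each leukemia well by plate, with the black line at the median of the plate's wells. Cd160 and Cmah have no well at 0, while Cd7, S100a4, Lrrc17, Ms4a4b, Cd47 and Ccnf have 10, 50, 22, 76, 59 and 68 wells at 0.

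Of the variable genes, Lrrc17, a secreted leucine-rich repeat protein, had the second highest mean. It averaged 35.7 counts per well, reached 9943 CPM and was at 0 in 22 wells, where counting error predicts 1.89e-06 (overdispersion 2.15, plates 1.01 to 2.89). S100a4, a calcium-binding protein of motile cells, averaged 4.996 counts, was at 0 in 50 wells where 3.48 are predicted, and reached 2000 CPM (3.09, plates 2.53 to 4.22). Lrrc17 also varied in T wells (1.24, at 148.9 counts per well) and in HPC wells (8.14, at 2.06 counts). S100a4 varied less in T wells (0.189, at 27.3 counts per well) and in HPC wells (0.604, at 17.9 counts). The HPC values of both genes include the wells against their label. Of these, well 96 of plate 4, with a T profile, held 931.7 CPM of Lrrc17, the highest of the HPC wells. The HPC value of Lrrc17 without it was not measured, so it is no sure sign of variation within the HPC line. Ms4a4b, a membrane protein of T cells (4.63), Phkg1, a subunit of phosphorylase kinase (3.91), Dusp2, a phosphatase of MAP kinases (1.56), Phlda1 (1.27), Coro2a, an actin-binding protein (1.45), and Cd47, the ligand of SIRP alpha (1.31), were above 0.5 on each of the 4 plates. Cd47 was at 0 in 59 wells, where 37.4 are predicted.

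Some high values rested on few wells. Ctsl, a lysosomal protease, had 60 of its counts in well 4 of plate 2, the well that also held Ccdc36, and its overdispersion was 10.5 with that well and 2.89 without. Nup98, a nuclear pore protein, had 87 counts in a single well, and its value was 4.28 with it and 0.227 without. Coro2a was 0.703 and Ms4a4b 2.12 without their highest well. Without plate 1 Xaf1 was at 2.34 in place of 7.06, and Coro2a at 0.685 in place of 1.45; without plate 2 Ctsl was at 3.56, Nup98 at 0.122 and Rn4.5s at 0.839. Pooled over plates Xaf1 was at 22.5, and after thinning Hist1h2bc was at 5.33 and Trappc9 at 0.927. Estimated counts that are not whole made up 93.7% of the positive values of Ccdc36, 67.3% of Xaf1 and 64.2% of Kif3a, so these 3 genes may share reads with others and are uncertain. The same limit holds for Rn4.5s (42.9%), Ctsl (42.2%) and Hist1h2bc (24.7%), which also lay above the 5.05% of all positive values in leukemia wells. Rn4.5s, a small noncoding RNA, differed between plates, at 6300, 9477, 1434.2 and 1464.5 CPM, and within them (1.26). Trappc9 (2.58), Vaultrc5 (1.97), Hist1h2bc (1.796) and Cdc25b (1.32) complete the list with Ccnf.

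Genes of G2 and mitosis held the largest number of variable members of any list, in a list that is also the longest. Of 40 expressed G2/M genes, 8 were at 0.5 or above, 20% where the background is 2.7%: Nusap1, a spindle protein (1.22), Ube2c (0.889), Cenpf (0.864), Hmmr (0.614), Tpx2 (0.585), Cenpe (0.528), Mki67 (0.517) and Cdc20 (0.505). Ccnf, a cyclin of G2 phase outside that list, was at 1.59 (plates 1.24 to 2.86). The homing list, with 2 of 6 expressed genes at 0.5 or above (Cx3cr1 and Itgb7), had a higher median than the G2/M list, 0.416 against 0.307. Of 39 expressed S phase genes, Ung (0.796) and E2f8 (0.606) reached 0.5. Myc was at 1.07 and Pim2 at 0.555, while Trp53 was at -0.0013. The 14 expressed glycolysis genes had a median of 0.0490, from 0.0240 for Gapdh to 0.236 for Slc2a3.

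Shares of counts describe the same variation per well. S phase genes took 0.0609 to 0.954% of a leukemia well's counts, with a median of 0.567%, and G2/M genes 0.108 to 1.65%, with a median of 0.588%. In T wells the medians were 0.566% and 0.759%, and in HPC wells 0.408% and 0.467%. Against T and HPC wells, 43 of 45 tested S phase genes were neither higher nor lower and Blm, a helicase, was lower (-1.12), though not with a pseudocount of 5 CPM. Of 52 tested G2/M genes 3 were higher and 5 lower. Cdc20 (1.81), Hjurp (1.16) and Hmmr (1.09) were higher, and Gtse1 (-2.30), Cdca2 (-1.93), Aurka (-1.74), Smc4 (-1.58) and Ube2c (-1.57) were lower. Hmmr did not meet the rule without plate 2 or without plate 3.

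**Figure D5:**
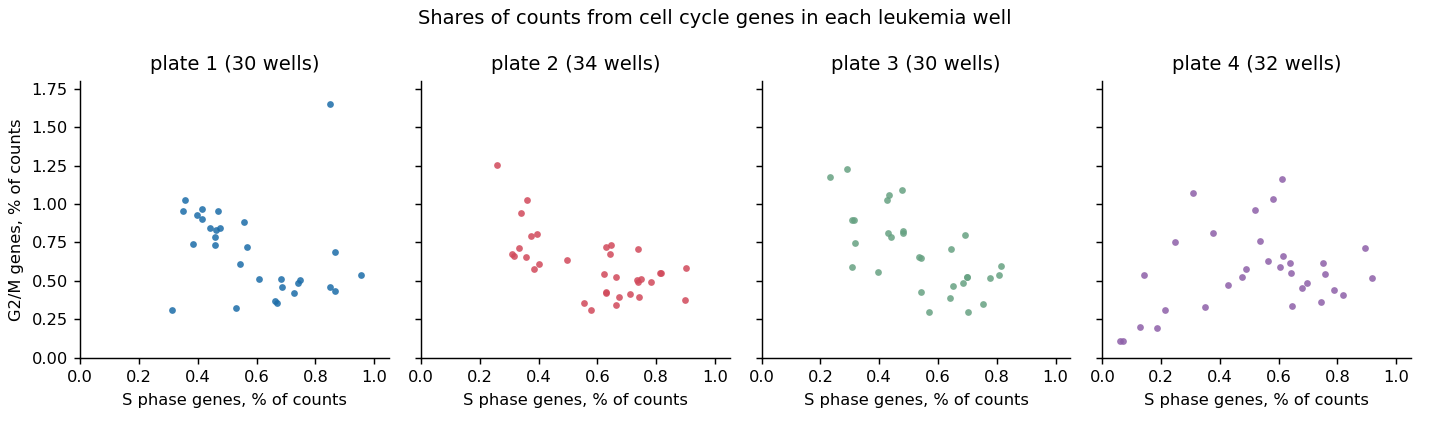
Share of counts from S phase genes (horizontal axis, %) and from G2/M genes (vertical axis, %) in each leukemia well, by plate. On plates 1 to 3 wells with a high share of one tend to have a low share of the other (Spearman correlations -0.45, -0.55 and -0.69), and plate 4 (0.19) holds wells low in both.

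Across all leukemia wells, the S phase share and the G2/M share had a Spearman correlation of -0.35, and -0.24 after thinning. By plate it was -0.45, -0.55, -0.69 and 0.19. On plate 4, and singled out after the values were seen, wells 22, 29, 36, 15 and 20 were low in both: the S phase shares were 0.0609, 0.0688, 0.128, 0.185 and 0.214%, and the G2/M shares 0.109, 0.108, 0.198, 0.195 and 0.308%. Their totals ran from 11627 to 22998 counts. The G2/M share followed the well's total count (0.47, and 0.48 after thinning), and the part of depth in these shares was not tested.

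The Spearman correlations given here are over all leukemia wells, which share plates and depth, first at full depth and then after thinning. The partners named were picked among the strongest of the expressed genes in these same wells, after the values were seen. Their values at full depth are therefore extremes of many. Ccnf went with mitotic genes, such as Plk1 (0.69 and 0.37) and Nusap1 (0.65 and 0.36). S100a4 went with Actb, a cytoskeletal actin (0.56 and 0.47), and Lgals1, a galectin (0.53 and 0.37). Cd7 ran against Npm1, a nucleolar protein (-0.50 and -0.41), and Hspd1, a mitochondrial chaperone (-0.46 and -0.42). Among expressed genes, the partner with the strongest correlation reached 0.35 for Lrrc17 (0.14 after thinning), 0.32 for Ms4a4b (0.13) and -0.40 for Cd47 (-0.14).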

How the data were processed

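Each well's RNA was primed with an oligo carrying a molecular barcode and counted by gene. The deposited values are expected counts (molecules per gene and well, not scaled between wells by the authors). Per the submitters' processing notes, bcl2fastq, STAR and mm10 were used; their versions, the counter, annotation and well filters were not given in the sources used here. Among positive values in leukemia wells, 5.05% were not whole. Spike-ins were added per the labels' protocols, but the table lists no ERCC or mitochondrially encoded gene. Groups came from the labels, and 1517 other columns of the table were not used.

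Members, markers and all 26 gene lists were chosen with earlier results of these data known. Counts were summed per plate and line, scaled to CPM, and compared as log2(CPM + 1). No test was run, since each line is 1 sample. Ratios carry exact 95% intervals from counts rounded to whole numbers, with at least 1 in the lower group. A group at 0 was set to 3 counts, without an interval. Genes were named by rule: the markers, the 15 largest differences in each direction (at least 50 CPM and 30 counts on the higher side, same direction on every plate, no predicted or Rik symbols), the 20 highest overdispersions above 0 on every plate, and list members; a few list members are counted but not reported by name here. Wells were thinned to 10000 counts after rounding, and none was lost. Line genes, used for the wells' percentages, were at least 8-fold over both other lines with 50 CPM, from the other plates. Steps were tested on simulated data. Computation used pandas 2.3.3 with numpy 2.4.6 and scipy 1.17.1 in python 3.11.15, figures matplotlib 3.10.9, and an alternative scaling edgeR 4.0.16 in R 4.3.3. The alternatives changed scaling, pseudocount, filters, weighting, wells and plates.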

Additional observations from a re-analysis of the deposited data

How the results depend on the processing

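Of the 30 genes with the largest differences, none changed sign under any of the 13 alternatives. They were named for large differences in the same direction on every plate. Leaving out a plate or changing the filter therefore could not change their sign. The number of genes meeting the rule followed the filter, since fewer or more genes are then tested: at 50 CPM or more, 8.48% of 3689 tested genes were higher and 9.16% lower, and with no filter 14.3% of 14419 were lower. The other alternatives, plates aside, gave 7.15 to 9.76% higher and 12.05 to 14.999% lower genes, the lowest with a pseudocount of 5 CPM. Leaving out a plate gave 9.24 to 9.66% and 14.2 to 15.05%. Pseudocounts of 0.1 and of 5 CPM each moved 25 of the 30 log2 differences by more than their spread over plates. The list entries that met the rule were 44 higher and 82 lower, with a gene counted in each list that holds it. Of these, 56 did not at 50 CPM, 9 not with a pseudocount of 5 CPM and 7 not with equal weights. Without the wells against their label 1 did not. None changed sign, but the rule asked for the same direction on every plate. Leaving out a plate or changing the filter therefore could not change the sign of these entries.

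Genes with overdispersion of 0.5 or more made up 2.19% of 1644 expressed genes after thinning (36, of which 20 had reached it at full depth) and 1.62% of 1854 with at least 3 counts per well (30), where fewer genes are expressed. Without a plate the share was 2.35 to 3.35%, and the median 0.0583 to 0.0826. The S phase share without a plate was 0.544 to 0.594%, and the G2/M share 0.565 to 0.610%. Without the well with the most counts of the gene, an alternative chosen after seeing the data, 4 of 20 overdispersions moved. No paired analysis was possible because no test was run: each line is 1 sample, and the labels' numbers only name wells. Depth limits genes under about 1 count per well, whose variation was not measured.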
